A study of Rattus norvegicus with 16 samples.

Results

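The proteasome is the protein complex that degrades proteins marked with ubiquitin, and the genes of its subunits and of some of its assembly factors are described here in 2 rat kidney cell lines at 2 pH values. The genes were chosen by name and not by their values: protein-coding genes whose symbol starts with Psma, Psmb, Psmc or Psmd and goes on with a digit, without Psmb8, Psmb9 and Psmb10, which encode the inducible catalytic subunits. This rule found 37 of the 32623 genes in the deposited counts. They are 16 genes of the core particle, 17 genes of the regulatory particle, 3 chaperones of assembly (Psmd5, Psmd9 and Psmd10) and Psmc3ip, whose symbol fits the rule but whose product is a partner of recombinases in meiosis and no subunit. Psma3l is the symbol under which the file lists the gene that RefSeq calls Psma3, and no other row of that name is present. A total of 35 genes had enough counts to be tested. Psma8, a testis form of an alpha subunit, had at most 6 counts in a library, and Psmb11, a thymus form of a catalytic subunit, at most 4.

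The core particle is a barrel whose outer rings of alpha subunits gate the entrance and whose inner rings of beta subunits hold the protease sites inside. The regulatory particle docks on the alpha ring and consists of a base, whose ATPases unfold and thread the substrate, and a lid, which removes the ubiquitin chain. In kidney cells, as in others, this degradation also keeps the transcription factor Nrf2 low.

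The study exposed NRK-52E and NRK-49F cells, both from normal rat kidney, to acidic medium in co-culture and sequenced poly(A)-enriched RNA of each line. NRK-52E, epithelial cells derived from the proximal tubule, sat on porous filters hung into the wells of a plate. NRK-49F, which are fibroblasts, lay on the plastic of the wells below. All cells spent 24 h in medium without serum and then 48 h in medium of pH 7.4 or pH 6.0, which the sample labels write as pH7 and pH6. The 16 libraries form 4 groups of 4: NRK-52E at pH 7.4 (N1, N2, N5, N6), NRK-52E at pH 6.0 (N3, N4, N7, N8), NRK-49F at pH 7.4 (N9, N10, N13, N14) and NRK-49F at pH 6.0 (N11, N12, N15, N16). Values in 4 libraries are given in this order throughout. The cell line cannot be told apart from its support, filter or plastic. Neither the labels nor the methods say that the libraries of a group come from separate cultures, so the p-values measure the spread between these libraries and no more. Fewer cells and less RNA per cell cannot be told apart in such bulk samples. Library column names also carry a number whose meaning is not given. It is 21 or 22 in NRK-52E and 20 or 21 in NRK-49F, and within a line 2 libraries share each number and pH.

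The libraries hold 16201084 to 34784862 fragments counted on genes. Expression is given as FPM, fragments per 1000000 after TMM normalization over the 16 libraries. Proteasome genes are not ranked by FPM, because the file gives no gene lengths. Where markers are summed or called most abundant below, that also depends on gene length. Among tested members the counts ran from 59 for Psmc3ip to 10734 for Psmd2 in a library, so low counts limit Psmc3ip and Psmd10 (as low as 78) and hardly the others. A gene was called when its false discovery rate (FDR) was below 0.01 in both edgeR and DESeq2 with the same sign. The study's methods also ask for both tools, and the condition on the sign was added here. Fold changes are edgeR's, on the log2 scale, with their standard error (SE), and adjusted p-values are from edgeR's quasi-likelihood test with Benjamini-Hochberg adjustment over all genes tested.

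The labelled cell types were checked against 10 epithelial and 10 fibroblast markers. Ocln, of tight junctions, lay at 41.5 ± 1.97 FPM in NRK-52E at pH 7.4 and at 0 in all 4 NRK-49F libraries of that pH, and Krt7 at 36.9 ± 4.69 against 0.467 ± 0.341 FPM. Pdgfra, a fibroblast receptor, lay at 395 ± 56.2 FPM in NRK-49F and 0.289 ± 0.112 FPM in NRK-52E at pH 7.4, and Col1a1 at 6256 ± 425 against 23.7 ± 3.87 FPM. Other markers went against the labels. Thy1 was at 0 in all 16 libraries, and Epcam, Cldn3, Cldn4 and Cldn7 were at 0 in many NRK-52E libraries. Krt18 had 1 to 4 counts in each NRK-52E library, and Krt19 overlapped between the lines at pH 7.4. Krt8 was higher in NRK-49F than in NRK-52E at pH 7.4. Col3a1 was the most abundant fibroblast marker in NRK-52E. It was higher there than in NRK-49F, by 3.85 at pH 7.4 and 5.59 at pH 6.0 on the log2 scale. Summed over each list, both kinds of marker were lower at pH 6.0. Per group (mean ± SD, n = 4 libraries), the epithelial sum went from 516 ± 31.7 at pH 7.4 to 338 ± 30.7 FPM at pH 6.0 in the epithelial line and from 857 ± 68.3 to 207 ± 9.41 FPM in the fibroblast line, with Krt8 the most abundant gene in all 16 libraries. The fibroblast sum was 7077 ± 199 and 2965 ± 588 FPM in NRK-52E and 14563.5 ± 543 and 11431 ± 854 FPM in NRK-49F, with Vim the most abundant at pH 7.4 and Col1a1 at pH 6.0 in NRK-49F. In NRK-52E, all 5 epithelial markers tested and 6 of 7 fibroblast markers were called lower at pH 6.0. In NRK-49F, 1 of 2 and 5 of 8 were. Col1a1 was the single tested fibroblast marker with a positive value there, 0.40 (edgeR adjusted p = 0.0103, DESeq2 adjusted p = 0.000582), with all pH 6.0 libraries higher. It was not called with TMM and was called higher with DESeq2's size factors and with library totals. The part of these marker changes in the proteasome results was not tested.

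Library N13 stood apart among the NRK-49F libraries at pH 7.4. Its mean over the core genes was 0.23 on the log2 scale against -0.16 to -0.15 in the other libraries of its group, and it is the highest library of that group for most members named below. Results in NRK-49F are therefore also given without it where that changes them. Over all genes, N8 stood apart in NRK-52E at pH 6.0, with a chi-square per degree of freedom of 46.4 to 97.8 against the others of its group, which differed from each other by 9.57 to 41.7. Without N8, 8914 genes were called in NRK-52E in place of 7793, and 30 members were called higher in place of 31.

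In NRK-52E, 31 of the 35 members were called higher and 1 lower at pH 6.0, where 28.2% of all 13735 genes tested were called higher and 28.5% lower. Their median log2 fold change was 0.86, and that of all genes was 0.00. All pH 6.0 libraries lay above all pH 7.4 libraries for 30 members and below them for 2, beside 30.4% and 32.6% of all genes. In NRK-49F, 10 members were called higher and 1 lower, beside 18.4% and 19.4% of 13339 genes. The median was 0.13 for the members and -0.00 for all genes, the pH groups were separate upward for 11 members and downward for 2 (23.8% and 24.5% of all genes), and 21 of the 35 fold changes were positive.

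The count in NRK-49F fell without any single library other than N13. It was 3 without N9 or N10, 5 without N12, 6 without N11, N14 or N15, 8 without N16 and 11 without N13. All genes were called higher in 14.7% to 18.1% of tests in these fits, and in 18.4% with all libraries. The 2 libraries per pH of number 20 alone gave 12 higher and 1 lower with a median of 0.26, and those of number 21, which include N13, gave 0 higher and 1 lower with a median of 0.02. In the latter, edgeR alone called 0 higher and DESeq2 alone 1, and 5 had an unadjusted p below 0.05 in edgeR. All genes were called higher in 17.4% and 7.21% of tests in these 2 subsets. In NRK-52E the count ran from 27 to 31 when single libraries were left out, beside 23.5% to 31.2% of all genes. It was 22 within number 21 and 20 within number 22, with medians of 0.78 and 0.92, beside 17.9% and 10.3% of all genes. Psmc3ip was also called lower in NRK-52E without N8.

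The pH effects of the lines were compared directly in an interaction, the effect in NRK-52E minus that in NRK-49F. It was called positive for 24 members and negative for 1, Psmc3ip, beside 19.3% and 17.5% of 14679 genes, and the median was 0.80 for the members and -0.01 for all genes. The positive count was 18 without N3. Without that library Psmd1 was called negative as well, at -0.50, so that the negative count was 2, and the median of all genes was -0.12. Gene by gene, 8 members were called higher in both lines (Psma1, Psma3l, Psmd2, Psmd11, Psmd13, Psmd14, Psmd5 and Psmd9), and Psmc3 was called lower in both. A further 23 were called higher in NRK-52E alone, Psmd1 and Psmc3ip were called higher in NRK-49F alone, and Psma2 was called in neither line. Of the 12470 genes tested in both lines, 9.46% were called higher in both, 10.01% lower in both, 17.5% higher in NRK-52E alone, 7.16% higher in NRK-49F alone and 30.1% in neither.

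The normalization sets the zero of these fold changes. When libraries were scaled by their totals alone, the median of all genes moved to -0.21 in NRK-52E, to 0.04 in NRK-49F and to -0.25 for the interaction. Relative to that shifted median, the core and regulatory medians in NRK-52E were 0.78 and 0.90. No member changed sign in NRK-52E, and 26 were called higher and 2 lower. In NRK-49F, 3 members that were not called changed sign (Psmc1, Psmc4 and Psmd4) and the calls were again 10 and 1, and for the interaction 2 uncalled members changed sign (Psma2 and Psma3l) and the calls were 18 and 2. Of all genes called, 49.7% were higher at pH 6.0 in NRK-52E with TMM and 37.6% with totals, and for the interaction 52.4% and 33.8% were positive. DESeq2's size factors changed no member's sign in any comparison.

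**Figure D1:**
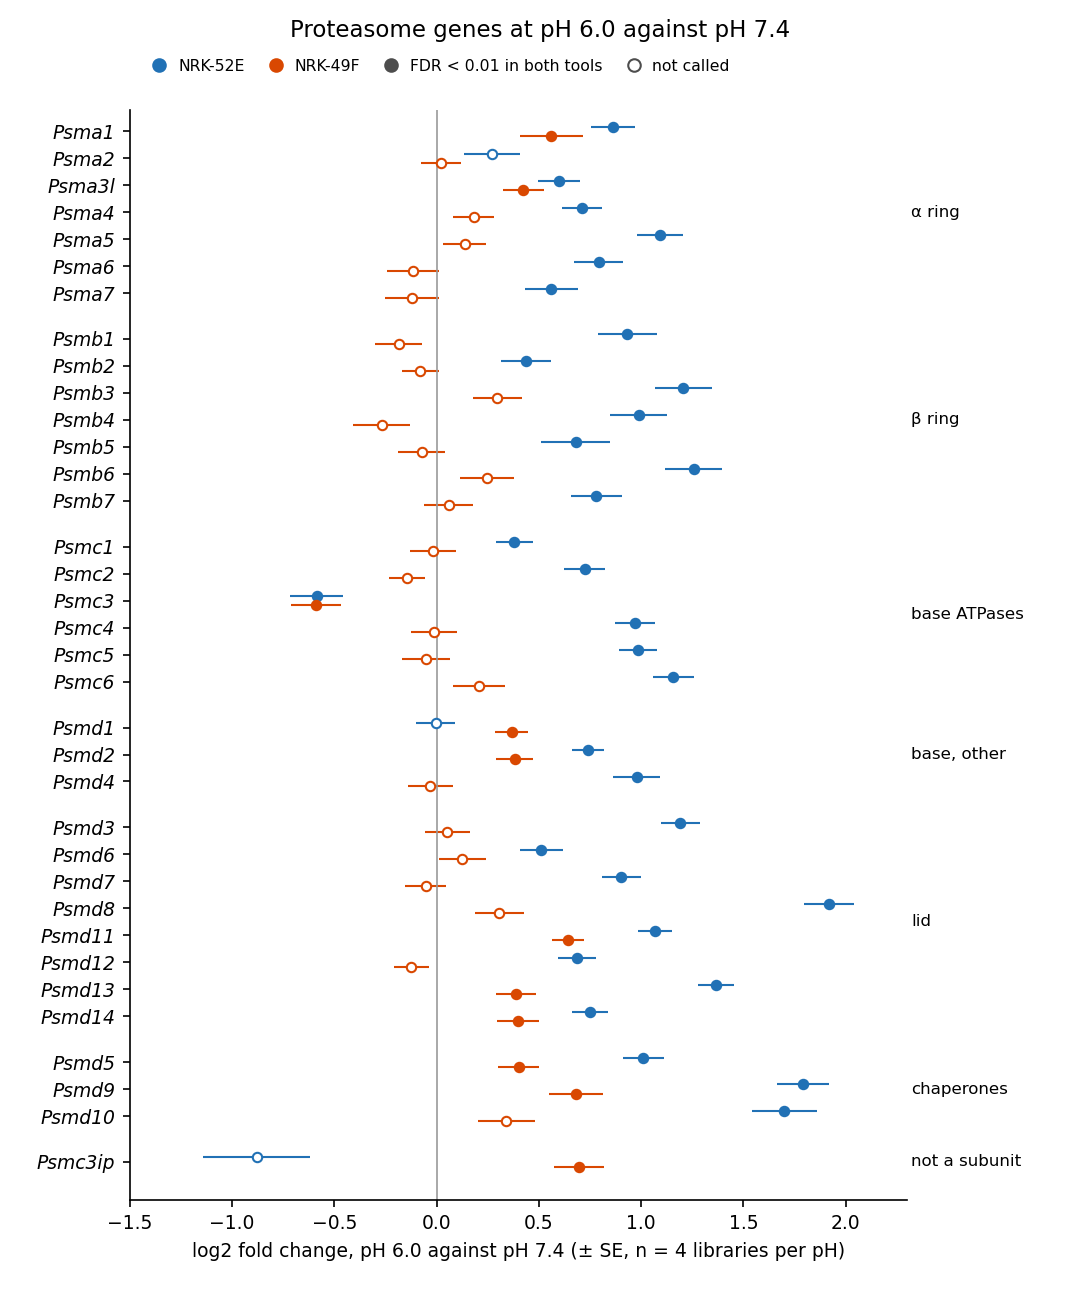
Log2 fold change at pH 6.0 against pH 7.4 (horizontal axis, ± SE, n = 4 libraries per pH) of the 35 tested members by role (vertical axis) in NRK-52E (blue) and NRK-49F (orange); filled points were called by both tools. Most blue points lie to the right of the orange point of the same gene, Psmd8, Psmd9 and Psmd10 lie farthest right, and Psmc3 lies at -0.59 in both lines.

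Core and regulatory particle were compared with a score for each library, the mean over the 14 core or 17 regulatory genes of log2 FPM relative to the same gene's mean over the 16 libraries. In NRK-52E the core score was -0.18, -0.40, -0.63 and -0.31 at pH 7.4 and 0.54, 0.18, 0.33 and 0.57 at pH 6.0. The regulatory score was -0.24, -0.38, -0.50 and -0.36 at pH 7.4 and 0.54, 0.33, 0.44 and 0.39 at pH 6.0. For both particles the pH groups of NRK-52E were separate, N5 was the lowest library, and N4 the lowest at pH 6.0. In NRK-49F the core score was -0.15, -0.15, 0.23 and -0.16 at pH 7.4 and -0.06, 0.09, 0.09 and -0.01 at pH 6.0, and the regulatory score -0.14, -0.17, 0.08 and -0.09 and then 0.07, 0.09, 0.06 and -0.10. There the groups overlapped, since N13 had the highest core score of the line and N16 the lowest regulatory score at pH 6.0.

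The score moved from pH 7.4 to pH 6.0 by 0.79 for the core and 0.79 for the regulatory particle in NRK-52E, with pooled SDs of 0.19 and 0.10. The difference between the particles, core minus regulatory, moved by -0.01 (pooled SD 0.12), less than the spread between libraries. When single libraries were left out, the core shift lay between 0.70 and 0.86, the regulatory shift between 0.75 and 0.84, and the difference between -0.08 and 0.04. In NRK-49F the shifts were 0.09 for the core and 0.11 for the regulatory particle, with pooled SDs of 0.15 and 0.10, and the difference moved by -0.02 (pooled SD 0.09). Without N13 they were 0.18, 0.17 and 0.02. With the median over members in place of the mean, the NRK-49F difference was -0.17 (pooled SD 0.11) and the pH groups overlapped. A shift of the core relative to the regulatory particle was thus not detectable in NRK-52E at this spread, and in NRK-49F it was above 1 SD with the median only. Scaled by library totals the NRK-52E shifts were 0.59 and 0.60.

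By counts, 13 of the 14 core genes were called in NRK-52E, all higher, with a median of 0.79, and 15 of the 17 regulatory genes were called higher and 1 lower, with a median of 0.90. Within numbers 21 and 22 these medians were 0.68 and 0.89 for the core and 0.85 and 0.92 for the regulatory particle. In NRK-49F, 2 core genes were called, both higher, with a median of 0.04, and 5 regulatory genes were called higher and 1 lower, with a median of 0.05. Within numbers 20 and 21 the NRK-49F medians were 0.14 and -0.04 for the core and 0.18 and -0.14 for the regulatory particle, so both turned negative in number 21. The interaction was called positive for 10 core and 11 regulatory genes, with medians of 0.72 and 0.85.

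**Figure D2:**
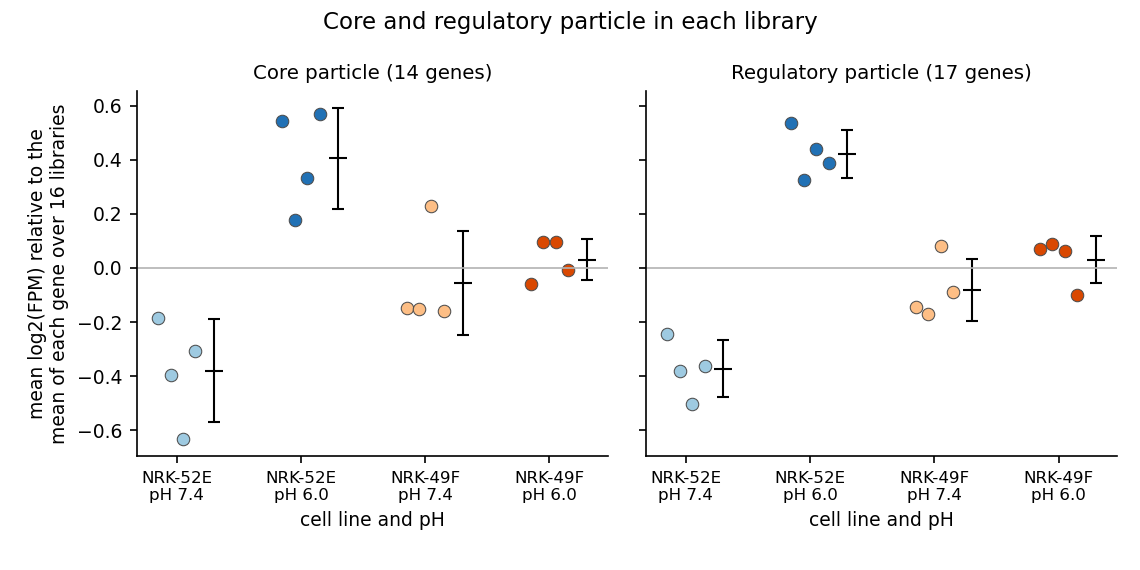
Core score (14 genes, left) and regulatory score (17 genes, right) of each library on a log2 scale (vertical axis) in the 4 groups of cell line and pH (horizontal axis); points are libraries and bars show mean ± SD (n = 4). NRK-52E at pH 6.0 has the highest group mean and NRK-52E at pH 7.4 the lowest for both particles, and the NRK-49F groups overlap.

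In the alpha ring, 6 of 7 tested genes were called higher in NRK-52E with a median of 0.71, 2 in NRK-49F with a median of 0.14, and 4 had a positive interaction. Psma5 had the largest rise of the ring in NRK-52E. It was at 97.5, 85.4, 76.7 and 90.6 FPM at pH 7.4 and 212, 165, 168 and 196 FPM at pH 6.0. In NRK-49F it was at 88.1, 90.9, 117 and 99.3 FPM at pH 7.4 and 103, 109.5, 106 and 117 FPM at pH 6.0. The NRK-52E groups were far apart, and in NRK-49F N13, at pH 7.4, was the highest library. The log2 fold change was 1.09 (SE 0.11, edgeR adjusted p = 9.36e-06) in NRK-52E and 0.14 (SE 0.11) in NRK-49F, and they differed by 0.94 (SE 0.15, edgeR adjusted p = 6.66e-05).

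Psma1, another subunit, had the largest rise of the ring in NRK-49F. In NRK-52E, Psma1 was at 137, 125, 114 and 129 FPM at pH 7.4 and 242, 192, 223 and 255 FPM at pH 6.0. In NRK-49F, Psma1 was at 105, 103, 142 and 77.3 FPM at pH 7.4 and 142, 160.0, 162 and 167 FPM at pH 6.0. Each pH 6.0 library lay above each pH 7.4 library in both lines, though in NRK-49F N13 and N11 nearly met and N14 was far below the others. Psma1 rose by 0.86 (SE 0.11, edgeR adjusted p = 3.63e-05) in NRK-52E and by 0.56 (SE 0.15, edgeR adjusted p = 0.00893) in NRK-49F, and the interaction of 0.28 was not called. The NRK-49F call was lost without any single library other than N13, with values from 0.43 (without N14) to 0.61 (without N11), and with the number as a covariate (0.56).

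Psma7 had the lowest fold change of the ring in NRK-49F and Psma2 the lowest in NRK-52E. In NRK-52E, Psma7 was at 148, 122, 103 and 127 FPM at pH 7.4 and 192, 157, 168 and 214 FPM at pH 6.0. In NRK-49F, Psma7 was at 132, 123, 172 and 137 FPM at pH 7.4 and 123, 145, 145 and 106 FPM at pH 6.0. The NRK-52E groups were separate, N4 only just above N1, and the NRK-49F groups overlapped, with N13 the highest and N16 the lowest. Psma7 rose by 0.56 in NRK-52E (SE 0.13, edgeR adjusted p = 0.00273), while its value was -0.12 in NRK-49F, and the interaction was 0.67 (SE 0.19, edgeR adjusted p = 0.00734). The rise was no longer called without N2 (0.55) or N5 (0.46) or with library totals (0.35), and the interaction was lost without N2, N3, N5, N6, N8, N11, N13, N14 or N16 (0.54 to 0.68) and with totals (0.42). In NRK-52E, Psma2 was at 133, 116, 88.6 and 112 FPM at pH 7.4 and 137, 115, 128 and 159 FPM at pH 6.0. In NRK-49F, Psma2 was at 141, 137, 166 and 139 FPM at pH 7.4 and 136, 154, 144 and 158 FPM at pH 6.0. Psma2 was the member whose groups overlapped in both lines without a call, at 0.27 (SE 0.14, edgeR adjusted p = 0.0972) and 0.02. Psma3l rose by 0.60 and 0.42 in the 2 lines, the latter not called without N9, N10 or N12 (0.41 each), and Psma4 and Psma6 rose by 0.71 and 0.79 in NRK-52E.

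In the beta ring, all 7 tested genes were called higher in NRK-52E with a median of 0.93. In NRK-49F edgeR and DESeq2 each called 0, 1 had an unadjusted p below 0.05 in edgeR, and the median was -0.07. The interaction was called positive for 6 of 7. Psmb6, Psmb7 and Psmb5 encode the catalytic subunits, which cut after acidic, basic and hydrophobic residues. In NRK-52E, Psmb6 was at 58.7, 52.2, 43.3 and 55.2 FPM at pH 7.4 and 131, 102, 114 and 148 FPM at pH 6.0. In NRK-49F, Psmb6 was at 80.0, 80.9, 105 and 85.3 FPM at pH 7.4 and 99.0, 125, 108 and 84.8 FPM at pH 6.0. The NRK-52E groups were separate, and the levels at pH 6.0 there overlapped those of NRK-49F. Psmb6 rose by 1.26 in NRK-52E (SE 0.14, edgeR adjusted p = 1.56e-05), the most in the ring, its value in NRK-49F was 0.25 (SE 0.13; 0.49 and called within number 20, 0.02 within number 21), and the interaction was 0.99 (SE 0.19, edgeR adjusted p = 0.000375).

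In NRK-52E, Psmb7 was at 182, 141, 145 and 187 FPM at pH 7.4 and 310.5, 247, 252 and 305 FPM at pH 6.0. In NRK-49F, Psmb7 was at 179, 176, 243 and 200.4 FPM at pH 7.4 and 209.5, 196, 237 and 192 FPM at pH 6.0. Only the NRK-52E groups were separate, and N13 was the highest NRK-49F library. Psmb7 rose by 0.78 in NRK-52E (SE 0.13, edgeR adjusted p = 0.00025), and the interaction of 0.71 (SE 0.18, edgeR adjusted p = 0.00302) was not called without N3 (0.55) or with library totals (0.46). In NRK-52E, Psmb5 was at 84.9, 68.8, 51.4 and 69.9 FPM at pH 7.4 and 130.5, 87.6, 95.5 and 123 FPM at pH 6.0. In NRK-49F, Psmb5 was at 96.2, 90.9, 124 and 99.7 FPM at pH 7.4 and 92.5, 102, 109 and 88.0 FPM at pH 6.0. The NRK-52E groups came close, with N1 at pH 7.4 just below N4 at pH 6.0. Psmb5 rose by 0.68 in NRK-52E (SE 0.17, edgeR adjusted p = 0.00406), and its value in NRK-49F was -0.07. This rise was not called without N2, N3, N5 or N6 (0.54 to 0.68) or with library totals (0.47). The interaction of 0.74 (SE 0.21, edgeR adjusted p = 0.00748) was lost without any of N2, N3, N5, N6, N8, N9, N11, N12, N13, N14 and N16 (0.54 to 0.76) and with totals (0.49).

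The other beta subunits have no protease site. In NRK-52E, Psmb4 was at 147, 146, 109.7 and 150.2 FPM at pH 7.4 and 295, 221, 251 and 317 FPM at pH 6.0. In NRK-49F, Psmb4 was at 208, 228, 303 and 190.1 FPM at pH 7.4 and 176, 208, 199 and 192 FPM at pH 6.0. In NRK-52E N5 was far below its group and the pH groups were separate, and in NRK-49F N13 was far above the other libraries of the line. Psmb4 rose by 0.99 in NRK-52E (SE 0.14, edgeR adjusted p = 9.91e-05) beside -0.27 in NRK-49F (SE 0.14, not called), which gave the largest interaction of the core, 1.24 (SE 0.20, edgeR adjusted p = 6.58e-05). In NRK-52E, Psmb3 was at 106, 84.9, 67.8 and 90.6 FPM at pH 7.4 and 221, 166, 199.6 and 212 FPM at pH 6.0. In NRK-49F, Psmb3 was at 137, 151, 191 and 149.9 FPM at pH 7.4 and 174, 215, 196 and 188 FPM at pH 6.0. Except for N13, the NRK-49F libraries at pH 7.4 lay below those at pH 6.0. Psmb3 rose by 1.20 in NRK-52E (SE 0.14, edgeR adjusted p = 2.21e-05), and its 0.30 in NRK-49F was not called with all libraries (edgeR adjusted p = 0.0535) and was called without N13 (0.41) and within number 20 (0.45, against 0.16 within number 21). Its interaction was 0.89 (SE 0.19, edgeR adjusted p = 0.000669). In NRK-52E, Psmb2 was at 108, 92.0, 78.3 and 94.5 FPM at pH 7.4 and 136, 104, 121 and 139.7 FPM at pH 6.0. In NRK-49F, Psmb2 was at 101, 99.5, 119 and 105 FPM at pH 7.4 and 93.7, 100.2, 102 and 105 FPM at pH 6.0. Psmb2 had the smallest rise of the ring in NRK-52E, 0.44 (SE 0.12, edgeR adjusted p = 0.0086), and its groups overlapped there, N1 above N4. The call was lost without N2, N3, N5, N6, N7 or N8 (0.34 to 0.46), with the number as a covariate and with library totals (0.23). Its interaction of 0.50 passed in DESeq2 (adjusted p = 0.00659) and not in edgeR (adjusted p = 0.0105), and both tools called it without N1 (0.57) or N4 (0.58). Psmb1 rose by 0.93 in NRK-52E.

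The base of the regulatory particle holds the 6 ATPases of its ring, of which 5 were called higher and 1 lower in NRK-52E with a median of 0.85. In NRK-49F 1 was called, lower, with a median of -0.03, and 4 had a positive interaction. In NRK-52E, Psmc6 was at 94.7, 89.8, 84.7 and 96.5 FPM at pH 7.4 and 228, 172, 203 and 206 FPM at pH 6.0. In NRK-49F, Psmc6 was at 108, 97.4, 130.02 and 85.1 FPM at pH 7.4 and 116, 136, 117 and 117 FPM at pH 6.0. The NRK-52E values at pH 6.0 were above all other libraries of both lines. Psmc6 rose by 1.16 there (SE 0.10, edgeR adjusted p = 2.91e-06), the most among the ATPases, with 0.21 in NRK-49F and an interaction of 0.94 (SE 0.16, edgeR adjusted p = 0.000137). In NRK-52E, Psmc5 was at 57.3, 51.2, 49.3 and 53.2 FPM at pH 7.4 and 114, 92.1, 105 and 103 FPM at pH 6.0. In NRK-49F, Psmc5 was at 101, 106, 145 and 117 FPM at pH 7.4 and 112, 115, 118 and 109 FPM at pH 6.0. At pH 7.4 every NRK-52E library was below every NRK-49F library, and at pH 6.0 the lines lay close together. Psmc5 rose by 0.98 in NRK-52E (SE 0.09, edgeR adjusted p = 5.08e-06), with -0.05 in NRK-49F and an interaction of 1.02 (SE 0.15, edgeR adjusted p = 1.99e-05).

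Psmc3 was the single subunit gene called lower at pH 6.0, and it was called lower in both lines. In NRK-52E, Psmc3 was at 149, 127, 109 and 129 FPM at pH 7.4 and 75.6, 75.7, 84.3 and 103 FPM at pH 6.0. In NRK-49F, Psmc3 was at 205, 190.4, 255 and 215 FPM at pH 7.4 and 156, 153, 149 and 118 FPM at pH 6.0. All pH 6.0 libraries were below all pH 7.4 libraries in each line, with N8 nearest to the pH 7.4 range in NRK-52E and N16 the lowest in NRK-49F. The log2 fold change was -0.59 in NRK-52E (SE 0.13, edgeR adjusted p = 0.00191) and -0.59 in NRK-49F (SE 0.12, edgeR adjusted p = 0.00152), with an interaction of -0.01 (SE 0.18). Within numbers 21 and 22 it was -0.88 and -0.33 in NRK-52E, the latter not called, and within numbers 20 and 21 it was -0.34 and -0.82 in NRK-49F, both called. Of the remaining ATPase genes, Psmc2 and Psmc4 rose by 0.72 and 0.97 in NRK-52E, and Psmc1 by 0.38, a call lost without N2, N5, N6 or N7 (0.30 to 0.38) and with library totals (0.17).

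The base also holds Psmd1 and Psmd2, large scaffolds on which ubiquitin receptors and shuttle proteins dock, and Psmd4, itself a receptor for ubiquitin chains. Of these 3 genes, 2 were called higher in each line. In NRK-52E, Psmd4 was at 72.9, 63.4, 60.4 and 69.9 FPM at pH 7.4 and 143, 105, 133 and 139 FPM at pH 6.0. In NRK-49F, Psmd4 was at 88.6, 88.1, 107 and 89.7 FPM at pH 7.4 and 93.7, 94.8, 101 and 76.3 FPM at pH 6.0. The groups were separate in NRK-52E and overlapped in NRK-49F, where N13 was the highest library. Psmd4 rose by 0.98 in NRK-52E (SE 0.11, edgeR adjusted p = 2.43e-05), its value was -0.03 in NRK-49F (0.02 with library totals), and the interaction was 0.99 (SE 0.16, edgeR adjusted p = 5.4e-05). In NRK-52E, Psmd2 was at 260.4, 249, 241 and 249 FPM at pH 7.4 and 438, 418, 428 and 372 FPM at pH 6.0. In NRK-49F, Psmd2 was at 241, 224, 248 and 267 FPM at pH 7.4 and 332, 307, 346 and 292 FPM at pH 6.0. Psmd2 was separate between the pH groups in both lines. It rose by 0.74 in NRK-52E (SE 0.08, edgeR adjusted p = 1.29e-05) and by 0.38 in NRK-49F (SE 0.09, edgeR adjusted p = 0.004), the latter not called without N9, N10, N11 or N15 (0.34 to 0.37), and the interaction of 0.35 passed in DESeq2 (adjusted p = 0.00742) and not in edgeR (adjusted p = 0.0234), while both tools called it without N8 (0.39). In NRK-52E, Psmd1 was at 158, 161, 144 and 149 FPM at pH 7.4 and 155, 163, 162 and 125 FPM at pH 6.0. In NRK-49F, Psmd1 was at 132, 126, 129 and 144 FPM at pH 7.4 and 173, 172, 175 and 166 FPM at pH 6.0. Here the NRK-52E groups overlapped and the NRK-49F groups were separate. Psmd1 rose by 0.37 in NRK-49F (SE 0.08, edgeR adjusted p = 0.00207), a call lost without N9 (0.36) or N10 (0.34), and was at -0.00 in NRK-52E (SE 0.09, edgeR adjusted p = 0.966). The interaction of -0.38 (SE 0.13, edgeR adjusted p = 0.0166) was not called, so the lines were not shown to differ, but it passed in DESeq2 alone (adjusted p = 0.00461) and was called by both tools without N3 (-0.50) and with library totals (-0.62).

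All 8 lid genes were called higher in NRK-52E with a median of 0.98, 3 in NRK-49F with a median of 0.22, and 6 had a positive interaction. Psmd8, which joins the lid late in its assembly, had the largest rise of all members in NRK-52E. In NRK-52E, Psmd8 was at 106, 91.0, 80.6 and 84.0 FPM at pH 7.4 and 407, 301, 342 and 306 FPM at pH 6.0. In NRK-49F, Psmd8 was at 65.6, 67.3, 80.9 and 75.4 FPM at pH 7.4 and 102, 95.7, 86.6 and 73.8 FPM at pH 6.0. The NRK-52E values at pH 6.0 were more than those of any other library by a wide margin, and in NRK-49F N16 was below N13 and N14. Psmd8 rose by 1.92 in NRK-52E (SE 0.12, edgeR adjusted p = 4.2e-07), its 0.31 in NRK-49F (edgeR adjusted p = 0.0452) was not called with all libraries but was without N16 (0.39) and within number 20 (0.59, against 0.03 within number 21), and its interaction was the largest of the members, 1.60 (SE 0.17, edgeR adjusted p = 8.46e-07). Within numbers 21 and 22 the NRK-52E value was 1.83 and 1.99.

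Psmd11, which clamps the lid to the core particle, had the largest lid change in NRK-49F. In NRK-52E, Psmd11 was at 118, 121, 113 and 118 FPM at pH 7.4 and 272, 236, 245 and 225 FPM at pH 6.0. In NRK-49F, Psmd11 was at 112, 106, 112 and 115 FPM at pH 7.4 and 180.5, 163, 175 and 177 FPM at pH 6.0. The libraries of each group lay close together and the pH groups far apart in both lines. Psmd11 rose by 1.07 in NRK-52E (SE 0.08, edgeR adjusted p = 1.3e-06) and by 0.64 in NRK-49F (SE 0.08, edgeR adjusted p = 3.25e-05). The interaction of 0.41 (SE 0.11, edgeR adjusted p = 0.00415) was not called without N3 (0.25), N5 (0.39) or N12 (0.38) or with library totals (0.17). Psmd14 encodes the metalloprotease that cuts ubiquitin chains off the substrate. In NRK-52E, Psmd14 was at 55.5, 53.6, 46.4 and 50.8 FPM at pH 7.4 and 85.3, 82.5, 84.5 and 91.9 FPM at pH 6.0. In NRK-49F, Psmd14 was at 70.0, 71.2, 83.9 and 70.5 FPM at pH 7.4 and 94.3, 105, 86.8 and 104 FPM at pH 6.0. The pH groups were separate in both lines, with N13 nearest to the pH 6.0 libraries in NRK-49F. Psmd14 rose by 0.75 in NRK-52E (SE 0.09, edgeR adjusted p = 2.71e-05) and by 0.40 in NRK-49F (SE 0.10, edgeR adjusted p = 0.00641), the latter not called without N9, N10, N11, N12, N14 or N16 (0.36 to 0.42).

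Psmd12 and Psmd6 are structural subunits of the lid. In NRK-52E, Psmd12 was at 80.8, 75.4, 66.4 and 75.4 FPM at pH 7.4 and 132, 115, 122 and 108 FPM at pH 6.0. In NRK-49F, Psmd12 was at 126, 126, 141 and 124 FPM at pH 7.4 and 122, 124, 118 and 112 FPM at pH 6.0. The groups were separate in both lines but in opposite directions. In NRK-49F they nearly touched, with N14 at pH 7.4 at 124.494 FPM and N12 at pH 6.0 at 124.367 FPM. Psmd12 rose by 0.69 in NRK-52E (SE 0.09, edgeR adjusted p = 6.68e-05), its -0.12 in NRK-49F was not called (SE 0.09, edgeR adjusted p = 0.247), and the interaction was 0.80 (SE 0.12, edgeR adjusted p = 3.44e-05). In NRK-52E, Psmd6 was at 99.0, 83.4, 83.0 and 91.1 FPM at pH 7.4 and 146, 111, 119 and 128 FPM at pH 6.0. In NRK-49F, Psmd6 was at 99.3, 100.4, 122 and 83.4 FPM at pH 7.4 and 115, 109, 112 and 107 FPM at pH 6.0. Psmd6 had the smallest rise of the lid in NRK-52E, 0.51 (SE 0.10, edgeR adjusted p = 0.00121), with separate groups there, and it was not called with library totals (0.30). Psmd3, Psmd7 and Psmd13 rose by 1.19, 0.90 and 1.37 in NRK-52E, and Psmd13 by 0.39 in NRK-49F, where the call was lost without N9, N10, N11, N12, N14 or N15 (0.35 to 0.40).

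Psmd5, Psmd9 and Psmd10 encode chaperones that guide assembly of the base and are absent from the finished complex. All 3 were called higher in NRK-52E with a median of 1.70, 2 in NRK-49F with a median of 0.40, and all 3 had a positive interaction. In NRK-52E, Psmd9 was at 19.9, 18.6, 14.7 and 18.6 FPM at pH 7.4 and 71.8, 54.8, 60.3 and 59.5 FPM at pH 6.0. In NRK-49F, Psmd9 was at 22.2, 27.1, 30.0 and 27.0 FPM at pH 7.4 and 48.2, 43.9, 43.5 and 35.3 FPM at pH 6.0. Both lines had separate pH groups, and NRK-52E went from slightly below to above NRK-49F. Psmd9 rose by 1.79 in NRK-52E (SE 0.13, edgeR adjusted p = 7.39e-07) and by 0.68 in NRK-49F (SE 0.13, edgeR adjusted p = 0.000883), with an interaction of 1.10 (SE 0.18, edgeR adjusted p = 7.7e-05).

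In NRK-52E, Psmd10 was at 3.67, 3.43, 4.61 and 3.78 FPM at pH 7.4 and 11.995, 11.6, 12.7 and 13.7 FPM at pH 6.0. In NRK-49F, Psmd10 was at 10.6, 10.2, 10.7 and 11.2 FPM at pH 7.4 and 12.7, 16.2, 12.7 and 12.51 FPM at pH 6.0. NRK-52E at pH 7.4 was far below the other 3 groups, which lay close together, with N12 above the rest of its group. Psmd10 rose by 1.70 in NRK-52E (SE 0.16, edgeR adjusted p = 5.03e-06), its 0.34 in NRK-49F was not called although the groups were separate (edgeR adjusted p = 0.0551), and the interaction was 1.35 (SE 0.20, edgeR adjusted p = 2.35e-05). In NRK-52E, Psmd5 was at 51.1, 45.6, 41.0 and 45.9 FPM at pH 7.4 and 97.6, 80.5, 92.8 and 96.2 FPM at pH 6.0. In NRK-49F, Psmd5 was at 45.1, 46.9, 50.2 and 42.9 FPM at pH 7.4 and 55.3, 60.6, 59.4 and 69.2 FPM at pH 6.0. Psmd5 was separate between the pH groups in both lines. It rose by 1.01 in NRK-52E (SE 0.10, edgeR adjusted p = 7.42e-06) and by 0.40 in NRK-49F (SE 0.10, edgeR adjusted p = 0.00521), the latter not called without N9, N10, N12, N14, N15 or N16 (0.34 to 0.42). Its interaction of 0.60 (SE 0.14, edgeR adjusted p = 0.0017) was not called without N3 (0.46) or with library totals (0.35).

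Psmc3ip, which is no subunit, had the opposite pattern. In NRK-52E, Psmc3ip was at 10.55, 8.38, 8.516 and 8.27 FPM at pH 7.4 and 3.61, 3.86, 3.81 and 7.87 FPM at pH 6.0. In NRK-49F, Psmc3ip was at 15.1, 15.48, 19.1 and 16.51 FPM at pH 7.4 and 23.9, 26.0, 27.8 and 29.7 FPM at pH 6.0. N8 was far above its group but still below all pH 7.4 libraries, and in NRK-49F the pH 6.0 libraries were all higher. Psmc3ip rose by 0.70 in NRK-49F (SE 0.12, edgeR adjusted p = 0.000483). In NRK-52E its -0.88 was not called (SE 0.26, edgeR adjusted p = 0.0116, DESeq2 adjusted p = 0.00237), and without N8 it was -1.24 and called. The interaction was -1.60 (SE 0.28, edgeR adjusted p = 0.000156).

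**Figure D3:**
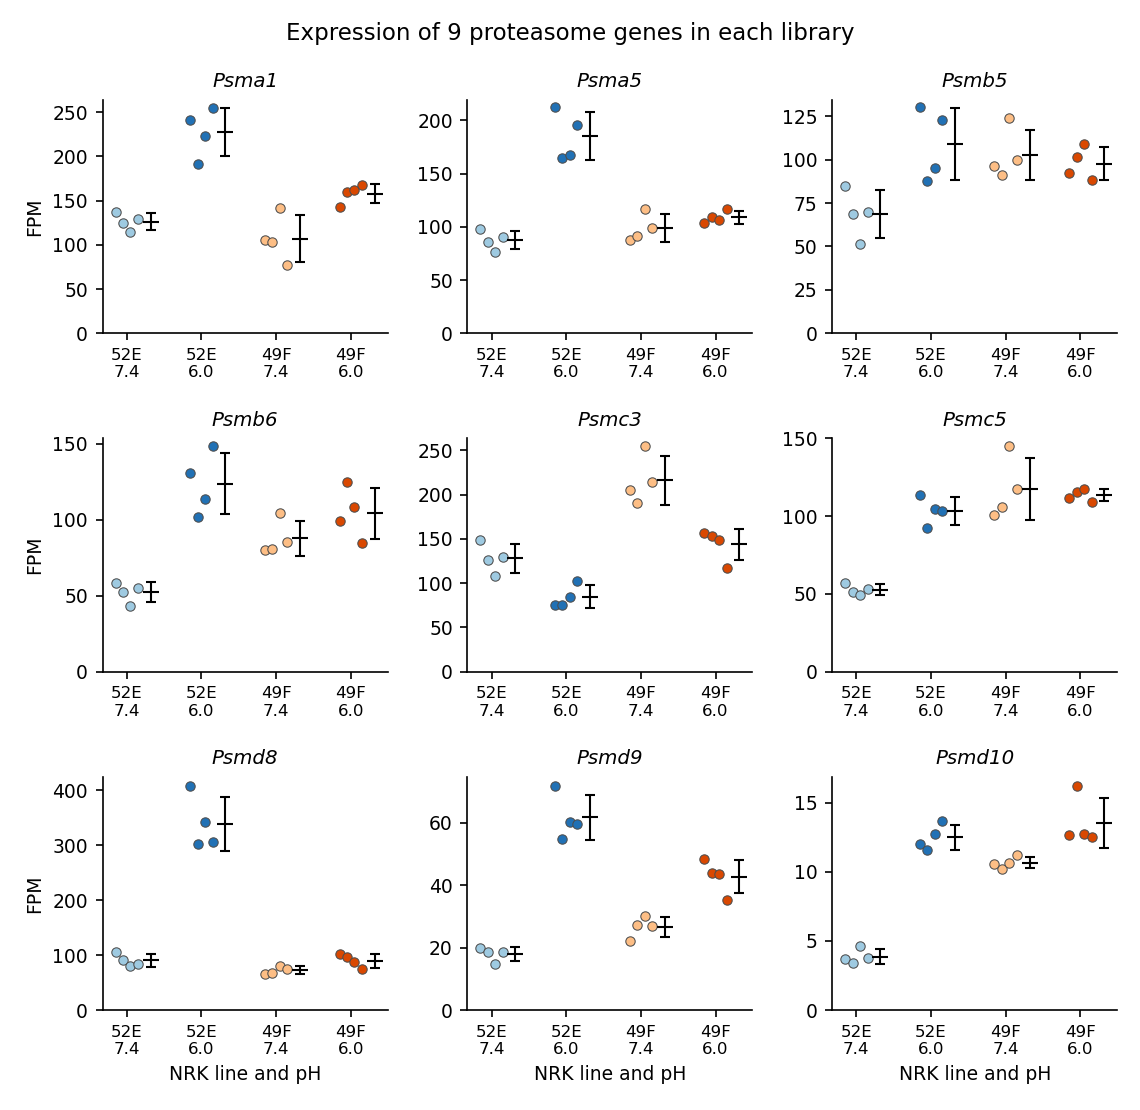
FPM (vertical axes, starting at 0) of 9 members in each library of the 4 groups of NRK line and pH (horizontal axes); points are libraries and bars show mean ± SD (n = 4). Psmd8, Psmd9 and Psmd10 have their widest gap between the NRK-52E groups, and Psmc3 is lower at pH 6.0 in both lines.

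The group means of each gene also give an order of the 4 groups. The highest mean of 27 of the 35 members was in NRK-52E at pH 6.0, that of 5 in NRK-49F at pH 6.0 (Psma2, Psmd1, Psmd14, Psmd10 and Psmc3ip) and that of 3 in NRK-49F at pH 7.4 (Psmc3, Psmc5 and Psmd12). The lowest mean of 25 members was in NRK-52E at pH 7.4 and that of 7 in NRK-49F at pH 7.4. Psmc3 and Psmc3ip had their lowest mean in NRK-52E at pH 6.0 and Psmc1 in NRK-49F at pH 6.0. The same counts were not made over all genes, so these do not show whether the order is particular to the members.

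At pH 7.4, 4 members were called higher and 17 lower in NRK-52E than in NRK-49F, beside 33.3% and 33.3% of 14026 genes, with a median of -0.29 for the members and 0.03 for all genes. The normalization moved the zero of these differences and hardly the members' place relative to all genes. With library totals the median of all genes moved to 0.34 and that of the members to 0.02. Relative to all genes, the members' median was -0.32 with totals and -0.32 with DESeq2's size factors. With totals 10 members were called higher and 8 lower. The sign changed for 9 members that TMM did not call, of which Psmd7 (0.28) was called with totals. The higher share of all called genes went from 49.99% to 65.7%. The higher count was 2 without N9 or N10 and 6 without N13, beside 31.5%, 31.4% and 32.9% of all genes. The lower count was between 13 and 17 with a library left out, beside 30.5% to 32.8% of all genes. Of the core genes 1 was called higher and 6 lower, and of the regulatory genes 3 and 8, with medians of -0.25 and -0.12, which were -0.27 and -0.14 relative to all genes with totals. The beta ring held 5 of the lower calls, with a median of -0.66. With totals 5 of its 7 genes were still negative and 3 were called lower, while Psmb4 and Psmb5 lost their calls. Among the core genes the most negative difference was that of Psmb1 with -0.83 (SE 0.13, edgeR adjusted p = 0.000138) and the most positive that of Psma3l with 0.66 (SE 0.09, edgeR adjusted p = 5.06e-05). Among the regulatory genes these were Psmc5 with -1.07 (SE 0.11, edgeR adjusted p = 5e-06) and Psmc1 with 0.48 (SE 0.10, edgeR adjusted p = 0.00111). Psmd10 had -1.37 (SE 0.14, edgeR adjusted p = 3.63e-06), and Psmd9 had -0.48, which was not called without N5, N10 or N14 (-0.48 to -0.41) or with totals (-0.18).

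At pH 6.0, 19 members were called higher and 2 lower in NRK-52E than in NRK-49F, beside 28.6% and 31.3% of 13796 genes, with medians of 0.42 and -0.03. With library totals the median of all genes was 0.12, 23 members were called higher and 2 lower, and 3 uncalled members changed sign (Psma2, Psmc5 and Psmd10). Of the core genes 7 were called, all higher, and of the regulatory genes 10 higher and 1 lower, with medians of 0.37 and 0.49, or 0.39 and 0.52 relative to all genes with totals. The core gene with the largest difference was Psma5 with 0.77 (SE 0.11, edgeR adjusted p = 5.05e-05), and the smallest among those called was Psmb7 with 0.42, which was lost without N3, N8, N11, N12 or N16 (0.37 to 0.41). Psmd8 had the largest positive difference, 1.92 (SE 0.14, edgeR adjusted p = 1.12e-07). Among the chaperones Psmd9 and Psmd5 differed by 0.53 and 0.59. The members called lower were Psmc3 with -0.76 (SE 0.13, edgeR adjusted p = 0.000237) and Psmc3ip with -2.48 (SE 0.25, edgeR adjusted p = 2.21e-06), which at pH 7.4 differed by -0.67 and -0.81. With the number as a covariate, which rests on number 21, present in both lines, the count of higher members was 12 at pH 6.0, beside 22.5% of all genes, and 2 at pH 7.4, beside 26.4%.

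Genes around the proteasome were counted in lists by role. For comparison, 28.2% of all genes were called higher and 28.5% lower at pH 6.0 in NRK-52E, and 18.4% and 19.4% in NRK-49F. Adrm1 and Sem1, subunits of the regulatory particle that the naming rule misses, were both called higher in NRK-52E, Adrm1 by 1.12. In NRK-49F edgeR and DESeq2 called 0 of the 2, and 0 had an unadjusted p below 0.05 in edgeR. Of 6 assembly chaperones of the core and regulatory particle, 4 were called higher in NRK-52E with a median of 0.76, among them Psmg4 by 1.15 and Pomp by 1.12. In NRK-49F 1 was, Psmg2 by 0.60, a call lost without N10, N12 or N14 (0.51 to 0.58). The inducible catalytic subunits, which replace the constitutive ones in immunoproteasomes, were lower in NRK-52E than in NRK-49F at both pH values, all 3 by both tools. Psmb8 lay at 7.63 to 8.47 FPM in NRK-52E at pH 7.4, 35.9 to 61.1 at pH 6.0, and 153 to 191 and 175 to 200.3 in NRK-49F. Psmb8 and Psmb9 rose by 2.53 and 1.75 in NRK-52E, and Psmb10 was called lower in NRK-49F with -0.44, but not without N9, N10, N11, N13, N14, N15 or N16 (-0.50 to -0.35) or with library totals. Among 4 tested caps and inhibitors that bind in place of the regulatory particle, Psme2 and Psmf1 rose by 1.004 and 0.53 in NRK-52E, with 1 call left without N5 or N6 and with library totals. In NRK-49F both tools called 0 of them, with 1 unadjusted p below 0.05 in edgeR. Psme1 had too few counts to be tested.

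Of 12 tested regulators of proteasome genes and their partners, 7 were called higher and 1 lower in NRK-52E with a median of 0.76, and 3 and 4 in NRK-49F with a median of 0.03. The NRK-49F lower count was 1 without N15, 2 without N9, N10, N12 or N16 and 2 with library totals. Maff, a small partner of Nrf factors, rose by 2.54 in the epithelial and 0.97 in the fibroblast line. Nfyc, a subunit of the factor that binds CCAAT, fell in both, with -1.40 and -1.14. Its other subunits on the list, Nfya and Nfyb, went the other way in NRK-52E. Their mean FPM at pH 6.0 was 2.06 and 1.73 times that at pH 7.4, with separate groups. In NRK-49F these ratios were 1.11 and 1.21, with separate groups for Nfyb only. Nfe2l1, which drives proteasome genes when the proteasome is inhibited, was at 246 to 304 FPM at pH 7.4 and 191 to 503 FPM at pH 6.0 in the epithelial line, where its 0.46 was called only without N8 (0.68). Nfe2l2, which encodes Nrf2, rose by 0.91 in NRK-52E and was called lower in NRK-49F at -0.37, but not without any 1 of N9, N10, N11, N12, N13, N15 and N16 (-0.39 to -0.33) or with library totals (-0.32), and the interaction was 1.27 (SE 0.15, edgeR adjusted p = 1.75e-06). Ddi2, the protease that processes the Nfe2l1 product, rose by 0.72 and 0.77 in the 2 lines, and its relative Ddi1 had 0 counts in all 16 libraries. A list of 12 genes held deubiquitinases and shuttle factors, and also Ube3a, Ube3c and Txnl1, which are neither. Of this list, 7 were called higher in NRK-52E and 4 in NRK-49F, beside 28.2% and 18.4% of all genes. The medians were 0.70 and 0.26. Uchl5, a deubiquitinase of the regulatory particle, rose by 1.95 and 0.77, and Sqstm1, which carries ubiquitin-marked cargo, by 1.74 in NRK-52E. Uba1, the main enzyme that activates ubiquitin, was called lower in NRK-52E at -0.33, but not without N2, N6 or N7 (-0.36 to -0.32), and Ubb, a gene of ubiquitin itself, was called lower in NRK-49F at -0.61.

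Since many members rose together in NRK-52E, their promoters were read from RefSeq (build GRCr8), 250 bases before to 50 after each gene's start, which held 32 of the 37 members. The motif TGACNNNGC, the core of the antioxidant response element that Nrf factors bind, was searched on both strands and found in 7 members (Psma3, Psmb2, Psmb5, Psmb6, Psmd1, Psmd3 and Psmd9), 21.9% of those matched, and in 12.1% of all 33469 promoters. CCAAT, searched the same way, was found in 17 members, 53.1%, and in 37.5% of all promoters. In Psmb2 the motifs share 1 base. These matches are descriptions of sequence and not of binding. Of the genes with TGACNNNGC, Psmd1 was not called in NRK-52E and all the others were called higher there. Among all 35 tested members, with or without the motif, 31 were called higher there. A part of the motif in these changes was not tested. The stretches of 130 bases before the start are printed for the genes with the largest rises in NRK-52E (Psmd8 and Psmd9), for 2 catalytic subunits (Psmb5 and Psmb6) and for Psmc3, which was called lower. They lie at chr1:93608690-93608819 on the minus strand (Psmd8), chr12:39018265-39018394 on the minus strand (Psmd9), chr15:32047380-32047509 on the minus strand (Psmb5), chr10:55737758-55737887 on the plus strand (Psmb6) and chr3:97487513-97487642 on the plus strand (Psmc3). Each is written 5′ to 3′ on the gene's strand, and capitals mark TGACNNNGC or CCAAT on either strand.
Psmd8: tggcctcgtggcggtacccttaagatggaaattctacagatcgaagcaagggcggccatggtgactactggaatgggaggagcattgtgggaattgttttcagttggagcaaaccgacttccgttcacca
Psmd9: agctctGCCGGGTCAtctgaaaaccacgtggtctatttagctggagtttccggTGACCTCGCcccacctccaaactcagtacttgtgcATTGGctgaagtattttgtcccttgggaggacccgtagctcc
Psmb5: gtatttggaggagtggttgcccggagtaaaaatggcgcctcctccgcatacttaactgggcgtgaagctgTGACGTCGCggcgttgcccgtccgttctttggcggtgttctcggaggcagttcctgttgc
Psmb6: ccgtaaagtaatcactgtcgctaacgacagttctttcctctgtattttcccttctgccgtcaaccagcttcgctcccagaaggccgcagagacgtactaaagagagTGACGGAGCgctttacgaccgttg
Psmc3: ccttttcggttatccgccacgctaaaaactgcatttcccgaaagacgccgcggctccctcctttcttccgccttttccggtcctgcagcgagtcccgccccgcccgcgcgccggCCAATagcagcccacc
Psmd9 holds TGACNNNGC on each strand and CCAAT on the opposite strand, Psmb5 and Psmb6 hold TGACNNNGC, Psmc3 holds CCAAT near its start, and the stretch of Psmd8 holds neither.

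RefSeq names a gene or pseudogene copy for 15 of the 31 core and regulatory genes (9 of 14 core, 6 of 17 regulatory), Psmd8 among them, and since fragments that map to several places were counted at each, the values of such genes are uncertain. The methods list the counting options without a setting for strand, and the tool then ignores strand by default, so transcripts that overlap a member on the opposite strand cannot be told apart from it.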

How the data were processed

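The authors deposited raw fragment counts per Ensembl gene, without normalization or a filter on low counts, for 16 libraries of poly(A)-enriched RNA on the rat genome rn6. Their methods name tophat2 as the mapper and the labels list HISAT2 2.1.0, which could not be settled. No library was left out. FPM and fold changes were computed in R 4.3.3 with edgeR 4.0.16 (TMM, its filter on low counts, quasi-likelihood test) and DESeq2 1.42.0 (Wald test), with Benjamini-Hochberg adjustment over all genes. Each pH or line comparison used its 8 libraries, and the interaction all 16. SE was taken as |log2FC|/sqrt(F). The two-group and interaction tests were tested on simulated data. No 2 libraries of a group matched within sampling noise, with a chi-square of 6.41 or more per degree of freedom (lowest for N2 and N6).

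Members, lists, comparisons and named genes were chosen with earlier results of these data known. Values in every library are given for Psmb5, Psmb6, Psmb7 and Psmd14, for the largest and smallest fold change of each role in each line, for the 3 largest interactions and for the 2 largest line differences at pH 7.4. Other genes were named after their values were seen. The alternatives were DESeq2's size factors, library totals, no filter, at least 1 CPM in at least 4 libraries, each tool alone, an FDR of 0.05, the number in the column names as a covariate, all 16 libraries in 1 fit and each library left out. Fits within each number, the scores without Psmc3 and the scores without genes with a copy named in RefSeq were added after seeing the data. A gene of the lists, and the counts that include it, are not reported here.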

Additional observations from a re-analysis of the deposited data

Results flagged for a closer look

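Of 120 groups of 4 libraries, 11 held a library far from the other 3, where chance gives about 1 in 20, or 6. For 5 of them it was N13 of NRK-49F at pH 7.4: Psma2 had 166 FPM there and 137 to 141 FPM in the other libraries, Psmd4 107 against 88.1 to 89.7, Psmd12 141 against 124 to 126 and Psmd14 83.9 against 70.0 to 71.2 FPM, and the core score was 0.23 against -0.16 to -0.15. In N12 of NRK-49F at pH 6.0, Psmc6 had 136 FPM against 116 to 117 and Psmd10 16.2 against 12.51 to 12.7 FPM, and in N16 of that group the regulatory score was -0.10 against 0.06 to 0.09. Psmb4 had 109.7 FPM in N5 of NRK-52E at pH 7.4 against 146 to 150.2 FPM. Psmc3ip had 10.55 FPM in N1 of that group against 8.27 to 8.516, and 7.87 FPM in N8 of NRK-52E at pH 6.0 against 3.61 to 3.86 FPM.

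The pH effect differed between the lines for 17 of the genes whose values are given by library. In order of size, effect in NRK-52E minus effect in NRK-49F, the interaction was 1.60 for Psmd8, 1.35 for Psmd10, 1.24 for Psmb4, 1.10 for Psmd9, 1.02 for Psmc5, 0.99 for Psmd4 and 0.99 for Psmb6. It was 0.94 for Psma5, 0.94 for Psmc6, 0.89 for Psmb3, 0.80 for Psmd12, 0.74 for Psmb5, 0.71 for Psmb7, 0.67 for Psma7, 0.60 for Psmd5 and 0.41 for Psmd11. For Psmc3ip it was -1.60.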

How the results depend on the processing

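Of 270 values that summarise a comparison under an alternative, 240 stayed within 1.5 times the count or 1 SD of the score, and the cause was not tested for the 30 others. The 31 higher members in NRK-52E were 20 within number 22 and 27 to 31 with a library left out. The 1 lower was 2 with DESeq2 alone, all 16 libraries in 1 fit, an FDR of 0.05, library totals, no filter or within number 21, 0 within number 22 and 1 to 2 with a library left out. The 10 higher in NRK-49F were 0 within number 21 and 3 to 11 with a library left out. The 1 negative interaction was 2 with DESeq2 alone, an FDR of 0.05 or library totals and 1 to 2 with a library left out. At pH 7.4 the 4 members higher in NRK-52E were 2 with all libraries in 1 fit or the covariate, 10 with library totals and 2 to 6 with a library left out, and the 17 lower were 8 with totals. At pH 6.0 the 19 higher were 12 with the covariate. The NRK-52E score shifts were 0.59 for the core and 0.60 for the regulatory particle with totals, and core minus regulatory in NRK-49F was -0.17 with the median over members. Among list counts and single genes, mostly genes named in the text, 2673 values stayed the same in direction and call, or in size, 178 lost their call, 13 gained one, 67 counts moved and 35 fold changes reversed, all of them pH effects called neither before nor after (signs that turned with library totals in the line differences and the interaction are given above), and the cause was not tested. Within number 20, NRK-49F values turned positive for Psma7 (0.084), Psmb5 (0.068), Psmc1 (0.13), Psmc4 (0.18), Psmc5 (0.15), Psmd4 (0.11) and Psmd7 (0.16). Within number 21 they turned negative for Psma2 (-0.018), Psmb7 (-0.053) and Psmd3 (-0.15), as did Psma2 in NRK-52E (-0.0033). With totals Psmc1 (0.032), Psmc4 (0.035) and Psmd4 (0.016) turned in NRK-49F, and Psmc4 was 0.0020 with no filter and 0.0035 with the CPM filter. With each library left out, NRK-49F values ran from -0.0078 to 0.099 for Psma2, -0.19 to 0.029 for Psma6, -0.12 to 0.040 for Psmb5, -0.058 to 0.095 for Psmc1, -0.084 to 0.075 for Psmc4, -0.12 to 0.077 for Psmc5, -0.072 to 0.052 for Psmd4, -0.0018 to 0.14 for Psmd3 and -0.095 to 0.0078 for Psmd7, and Psmd1 in NRK-52E ran from -0.059 to 0.073. Leaving out genes with a paralogue or pseudogene row could not be run because the file names none, and genes with a copy named in RefSeq were left out in its place. No paired analysis was possible because the groups share no replicate numbers. The number in the column names, shared within a line by 2 libraries of each pH, was fitted as a covariate. Depth limits Psma8 and Psmb11, which had too few counts to be tested.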
